A study of Mus musculus with 4 samples.

Results

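Genes of the lysosome and of autophagy were examined in mouse embryonic stem cells (ESCs) that lack the kinase Pim3. The set holds 35 genes, listed by name from the 55418 rows of the gene count table, and each of the 35 had enough counts to be tested. By role they are 7 proteases, 7 glycosidases, 3 proteins of lipid handling, 5 membrane proteins, 5 subunits of the proton pump V-ATPase, 2 transcription factors and 6 proteins of autophagy. RNA-seq libraries were made from 2 wild-type (WT) E14 ESC samples and from 2 Pim3-/- E14 ESC lines, one library each. E14 is an established mouse ESC line, and its strain is given as 12910la. Both groups were grown on gelatin in medium with fetal bovine serum and LIF, a cytokine that maintains ESCs, with no drug or other agent that set them apart. Pim3 had been knocked out by CRISPR/Cas9, and each Pim3-/- library came from 1 clone, so that a clone and its genotype cannot be told apart, nor can a clone and its library. The study's methods call the 2 WT samples biological samples but do not say whether they were separate cultures, and p-values measure only the spread between these libraries.

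The lysosome is an acidic organelle in which hydrolases digest proteins, glycans and lipids. The V-ATPase pumps the protons that acidify it, membrane glycoproteins line it, and autophagy delivers parts of the cytoplasm to it in autophagosomes. The transcription factors TFEB and TFE3 are held in the cytoplasm by the nutrient-sensing kinase complex mTORC1, and in the nucleus they bind E-box sequences with the core CACGTG in promoters of lysosome and autophagy genes, a set of targets often called the CLEAR network. The same factors have been studied in ESCs for their part in the exit from pluripotency.

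Total counts were 23156247 and 25668307 in WT replicates 1 and 2 and 22892949 and 22029427 in Pim3-/- replicates 1 and 2. Values of the 4 libraries are given below in that order, as CPM, read counts relative to the library size after scaling by TMM, a method that sets the bulk of genes equal between libraries. A single count was worth 0.0522, 0.0442, 0.0375 and 0.0388 CPM. Pim3 had 4392, 4953, 4970 and 4804 counts, or 229, 219, 186 and 186 CPM. The log2 fold change of Pim3, Pim3-/- over WT, was -0.27 (standard error, SE, 0.17; adjusted p = 0.251). An edit in the coding sequence need not change the number of reads of a gene, so this count does not test the labels. Scaling had a large effect in this comparison, and fold changes by library totals alone were higher by 0.45 on the log2 scale at the median of the 18444 tested genes. All 8 markers of pluripotent cells were detected. Of these 1 was called higher (Klf4, log2 fold change 1.44) and 3 lower (Pou5f1, Nanog and Utf1, at -1.12, -0.90 and -0.97). Among all tested genes 17.6% were called higher and 16.2% lower. Under library totals 3 markers were called higher and 1 lower, and Nanog (-0.45) and Utf1 (-0.51) lost their calls. By qPCR, the paper reports higher Nanog and undisrupted Oct4 (Pou5f1) in Pim3-/- ESCs, unlike these counts. For Nanog it also cites a western blot of the protein in these cells. It reports higher Nanog after depletion of Pim3 by shRNA and after inhibition of the kinase as well. Of 8 macrophage markers 3 were tested and edgeR and DESeq2 called 0, with 1 (Csf1r) at an unadjusted p under 0.05. Csf1r had 270, 293, 551 and 465 counts (adjusted p = 0.0772, and 0.00847 under library totals), Cd68 had 1066, 1149, 448 and 1258, and Itgam had 14, 28, 47 and 25. Ptprc and Adgre1 had a count of 0 in every library and Lyz2 had 0, 0, 1 and 0 counts. Of 8 fibroblast markers 3 were tested and 1 (Pdgfrb) was called higher. Of the 3, 2 had a positive log2 fold change and 1 (Thy1) a negative one, while Col3a1, Dcn and Lum had at most 1 count per library. Of 8 trophoblast markers 6 were tested and 2 (Eomes and Gata3) were called higher. Gata3 had 4, 4, 28 and 22 counts, and the Wald test of DESeq2 did not call it (adjusted p = 0.0795). Of the 6, 4 had a positive log2 fold change and 2 a negative one, Tfap2c (-0.39) and Krt18 (-0.58). Cdx2 had 1, 5, 12 and 2 counts and Elf5 had 3, 5, 6 and 3. In bulk RNA, fewer cells that express a gene and less RNA per cell cannot be told apart.

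Sequences upstream of the members come first, because the core E-box was found in many of them. Promoters of 250 bases before to 50 bases after the start site were taken from RefSeq (build GRCm38.p6) and matched 29 of the 35 genes, with 34 promoters in all. Atp6v1b2, Atp6v1h, Ctsb, Ctsh, Map1lc3a and Npc1 were not matched. CACGTG, which reads the same on both strands, stood in a promoter of 10 of the 29 genes (34.5%). It did so for 11.4% of 12042 tested genes with a promoter and 8.09% of all 27025 genes of the RefSeq promoter set. By promoter, it stood in 29.4% of the 34, against 9.66% of 15318 promoters of tested genes and 7.15% of 32851 promoters in all. The longer form TCACGTGA, which contains CACGTG and is also a palindrome, was found for 6 members (20.7%), against 1.97% of the tested genes. The still longer form with a G before and a C after TCACGTGA was found for 0 members, against 0.689% of the tested genes.

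The 5 stretches printed here hold boxes before the RefSeq start sites of genes to which the comparisons below return. By the GENCODE annotation they lie outside the annotated exons or reach at most 30 bases into one. Each is written 5′ to 3′ on the strand of its gene, with CACGTG in capitals. Lamp1 encodes one of the most abundant glycoproteins of the lysosomal membrane, and its stretch is the plus strand of chr8:13159061-13159160, directly before the start site. Mcoln1 encodes the calcium channel mucolipin of the lysosomal membrane, with the plus strand of chr8:3500384-3500483. Gaa encodes acid alpha-glucosidase, with the plus strand of chr11:119267787-119267886. Gla encodes alpha-galactosidase A, with the minus strand of chrX:134601126-134601208. Glb1 encodes beta-galactosidase, with the plus strand of chr9:114400978-114401077.
Lamp1: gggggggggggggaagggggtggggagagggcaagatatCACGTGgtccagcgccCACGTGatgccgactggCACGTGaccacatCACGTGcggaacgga
Mcoln1: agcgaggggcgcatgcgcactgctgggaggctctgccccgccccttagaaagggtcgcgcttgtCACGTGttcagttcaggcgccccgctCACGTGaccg
Gaa: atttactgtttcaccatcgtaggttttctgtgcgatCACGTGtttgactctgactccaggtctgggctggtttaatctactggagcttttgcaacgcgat
Gla: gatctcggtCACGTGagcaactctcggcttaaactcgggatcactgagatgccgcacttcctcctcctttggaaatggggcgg
Glb1: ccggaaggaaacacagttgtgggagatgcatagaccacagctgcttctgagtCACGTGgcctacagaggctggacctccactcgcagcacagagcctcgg

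The Lamp1 stretch holds 4 boxes, that of Mcoln1 holds 2, the second of them inside the annotated first exon, and those of Gaa, Gla and Glb1 hold 1 each. Boxes were found for 3 of the 5 proteases with a promoter (Ctsa, Ctsd and Ctsl), 3 of 7 glycosidases (Gaa, Gla and Glb1), 2 of 5 membrane proteins (Lamp1 and Mcoln1) and 2 of 3 V-ATPase subunits (Atp6v0d1 and Atp6v1a). No CACGTG stood in the windows of Tfeb, Tfe3, Map1lc3b, Sqstm1, Ulk1, Wipi1 or Gabarapl1, which says only that these letters are not there. A match describes the sequence and not the binding of a factor.

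**Figure D1:**
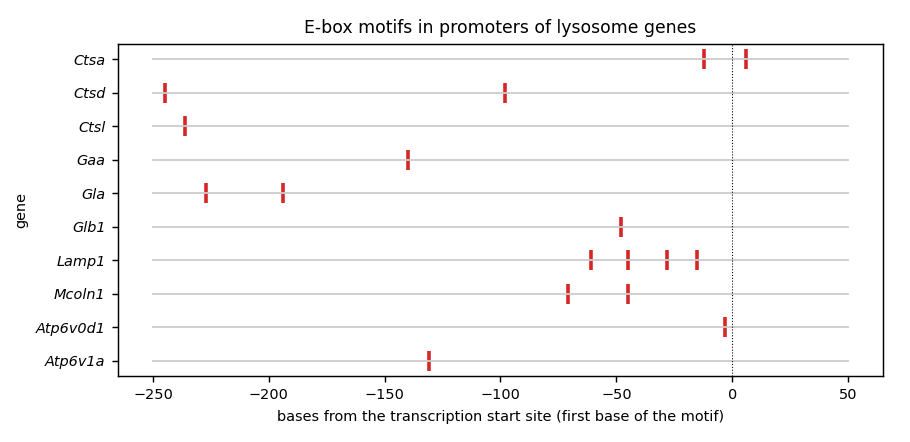
Positions of CACGTG in the promoters of the 10 lysosome genes that hold it, in bases from the transcription start site, which the dotted line marks. Each red mark is the first base of a box, each grey line the window searched, and Lamp1 holds the most boxes, with all 4 between -61 and -15.

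The question of the comparison was which genes differ after loss of Pim3. In the Pim3-/- libraries 6 of the 35 genes rose (Ctsh, Gaa, Npc1, Psap, Atp6v0a1 and Wipi1) and 4 fell (Gla, Tfe3, Tfeb and Map1lc3b), at an adjusted p under 0.05 (quasi-likelihood test of edgeR, with p-values of all tested genes adjusted after Benjamini and Hochberg). Among all 18444 tested genes, 17.6% were called higher and 16.2% lower, or 33.8% in either direction, and 10 called members of 35 is not above that share. The median log2 fold change of the members was 0.06, with a range of -0.99 to 2.44, against 0.07 for all tested genes. Both Pim3-/- libraries lay above both WT libraries for 11 members (38.3% of all tested genes did so), both lay below for 8 (34.2%), and the groups overlapped for 16. Under library totals 13 members were called higher (35.8% of all tested genes) and 1, Gla, was called lower (5.92%). The calls of Tfe3, Tfeb and Map1lc3b thus did not hold there. The 13 were the 6 named above with Ctsd, Hexa, Gusb, Man2b1, Mcoln1, Atp6v0d1 and Ulk1. The calls also rested on the close WT pair. Without WT replicate 1, edgeR called 0 members, against 2.03% of all tested genes called higher and 1.88% lower, while 3 members were higher and 1 lower at an unadjusted p under 0.05. Without WT replicate 2, 1 member was called higher (Ctsh, against 2.95%) and 1 lower (Gla, against 5.35%). The highest adjusted p of the 10 genes with any single library left out was between 0.0514 for Ctsh and 0.324 for Tfeb.

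**Figure D2:**
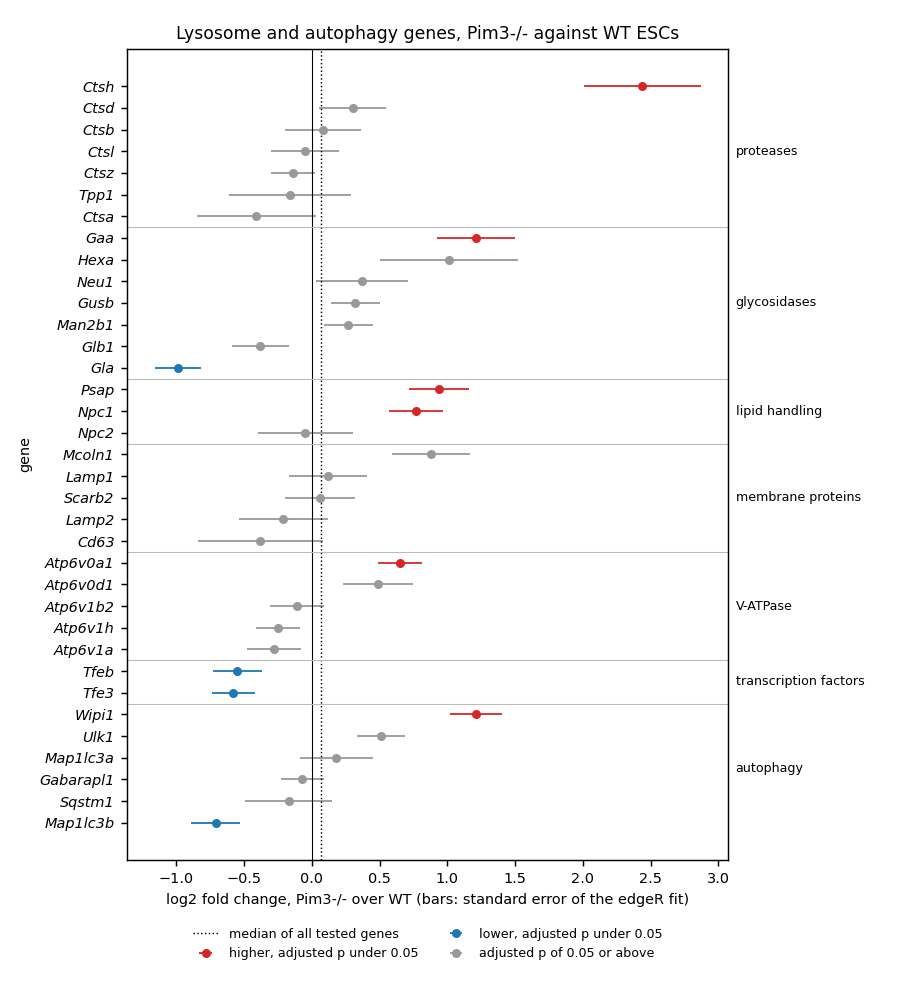
Log2 fold change of each of the 35 genes, Pim3-/- over WT, grouped by role, with bars for the standard error of the edgeR fit (2 libraries per group). The 6 genes called higher are red, the 4 called lower are blue, and the dotted line is the median of all tested genes at 0.07.

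A wide contrast in this set lay between the 2 Pim3-/- clones. Of the 35 genes, 28 (80%) were higher in Pim3-/- replicate 2 than in replicate 1, against 47.1% of all tested genes, and the number was 28 under library totals and under the size factors of DESeq2 as well. For 14 members (40%) Pim3-/- replicate 1 lay below both WT libraries and replicate 2 above both, against 5.70% of all tested genes. The reverse order held for 1 member, Map1lc3a, and for 5.24% of all tested genes. The 14 were Ctsa, Ctsb, Ctsd, Ctsl, Tpp1, Hexa, Neu1, Npc2, Cd63, Lamp1, Lamp2, Scarb2, Atp6v1b2 and Sqstm1. Under library totals the number was 8 (4.62% of all tested genes), namely Ctsa, Tpp1, Npc2, Cd63, Lamp2 and Sqstm1 of the 14, with Glb1 and Tfeb. A difference of at least 2-fold in favour of replicate 2 was found for 8 members (5.67% of all tested genes), and in favour of replicate 1 for 1, Ctsh (5.37%). The median absolute log2 ratio between the Pim3-/- libraries was 0.70 for the members and 0.35 for all tested genes. Between the WT libraries these medians were 0.07 and 0.18. Total counts of the clones were similar, while markers of primitive and visceral endoderm summed to 48.45 CPM in replicate 1 and 25.25 in replicate 2, and their part in the clone difference was not tested. With 1 library per clone these values have no replicate check, and no test was made. The members share their libraries and are not independent of each other.

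Summed over the 35 genes, the level was 4520, 4515, 3641 and 5977 CPM. The WT libraries were alike in that sum, Pim3-/- replicate 1 lay under them and Pim3-/- replicate 2 above. As a share of all counts, with no scaling factor, the members took 0.374%, 0.398%, 0.424% and 0.699%, and by that measure replicate 1 lay slightly above WT. Between the 2 Pim3-/- libraries the order was the same on both scales.

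**Figure D3:**
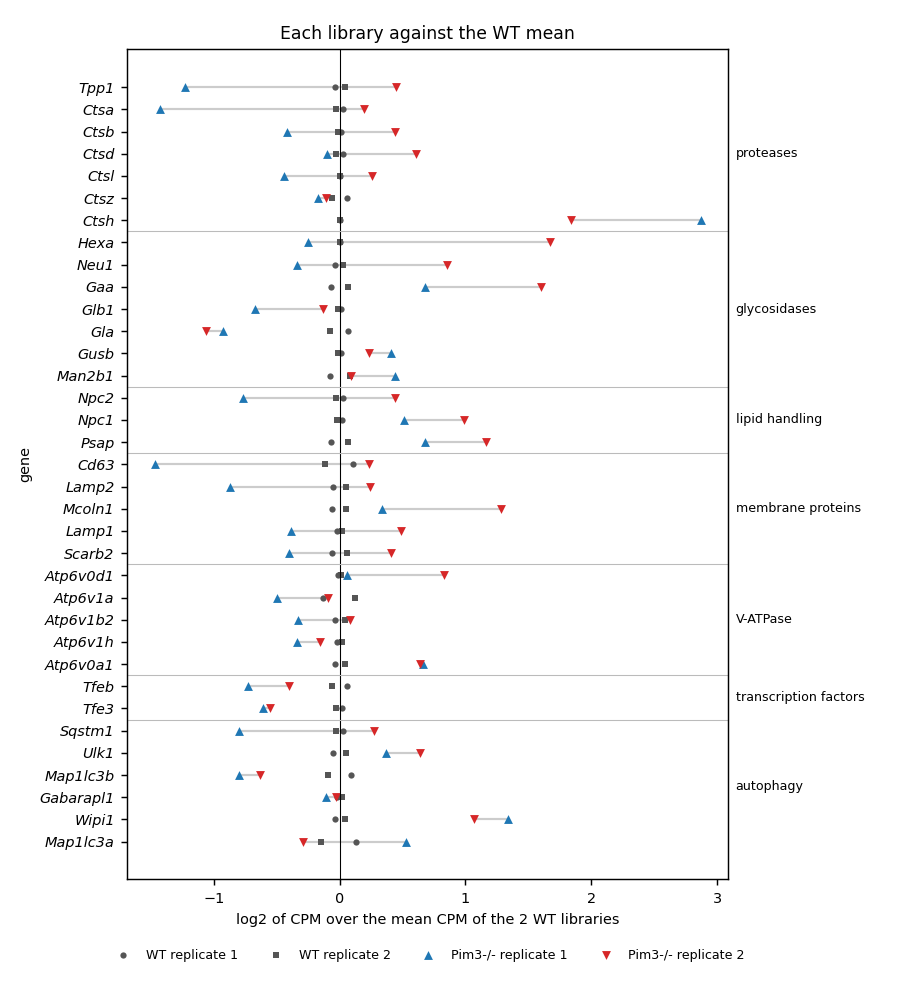
Each library as the log2 of its CPM over the mean CPM of the 2 WT libraries, for the 35 genes by role. Grey points are WT, blue triangles Pim3-/- replicate 1 and red triangles Pim3-/- replicate 2, and for 28 genes the red triangle lies to the right of the blue one.

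Among the proteases, 5 of 7 had replicate 1 below and replicate 2 above WT by CPM, against 5.70% of all tested genes. Under library totals only Ctsa and Tpp1 of these did so. Ctsa (chr2:164832873-164841032), a carboxypeptidase that also protects neuraminidase and beta-galactosidase, was at 183, 176, 66.7 and 204 CPM. Pim3-/- replicate 1 was at 0.371 of the WT mean and replicate 2 at 1.14, a 3.07-fold difference between the clones, and the fold change of the groups was -0.41 (SE 0.44; adjusted p = 0.493). Tpp1, a tripeptidyl peptidase lost in a neuronal ceroid lipofuscinosis, was at 77.8, 82.6, 34.2 and 110 CPM, a 3.21-fold difference between the clones. Ctsb, a cysteine protease, was at 241, 236, 179 and 324 CPM, and Ctsl, another cysteine protease, at 265, 267, 196 and 319 CPM. For both genes the WT libraries were close together and lay between the clones. Ctsd, an aspartic protease, was at 365, 349, 333 and 543 CPM, so that replicate 1 was close to WT and replicate 2 at 1.52 times its mean. The log2 fold changes of Tpp1, Ctsb, Ctsl and Ctsd lay between -0.16 and 0.30, and none passed the test with TMM factors. Under library totals edgeR called Ctsd higher (log2 fold change 0.75, adjusted p = 0.0415).

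Ctsz, cathepsin Z, a carboxypeptidase, was at 88.4, 81.7, 75.8 and 79.0 CPM, and its clones were close to each other (log2 fold change -0.14, SE 0.16, adjusted p = 0.534). Ctsh (chr9:90054152-90076089), cathepsin H, an aminopeptidase, differed from the other proteases. It had only 22 and 26 counts in WT but 224 and 106 in Pim3-/-, or 1.15, 1.15, 8.39 and 4.11 CPM. Both Pim3-/- libraries lay well above WT, and here replicate 1 was the higher one. The log2 fold change was 2.44 (SE 0.43; adjusted p = 0.00767), a ratio of 5.44 between the group means. Markers of primitive and visceral endoderm had the same order in their sum, but not each alone. Of 12 such markers 8 were tested, and 7 of the 8 were called higher, against 17.6% of all tested genes. Of the 12, 10 were higher in replicate 1 than in replicate 2. Gata4 was nearly level between the clones (7.01 and 6.71 CPM), and Cubn, with 8, 7, 180 and 10 counts, was high in replicate 1 only. The summed level of the 12 was 5.22, 7.16, 48.45 and 25.25 CPM, although Ttr had 0, 0, 1 and 2 counts and Afp 5, 2, 3 and 2. Gata6, a transcription factor of primitive endoderm, had 11, 19, 240 and 112 counts. The part of such cells in the Ctsh difference was not tested.

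Among the glycosidases 1 of 7 rose and 1 fell, where 17.6% and 16.2% of all tested genes did. Gaa (chr11:119267887-119285454), which degrades glycogen in the lysosome, was at 41.2, 45.3, 69.2 and 131 CPM. Both Pim3-/- libraries were above WT, at 1.60 and 3.03 times its mean, and the log2 fold change was 1.21 (SE 0.29; adjusted p = 0.0179). Gla (chrX:134588149-134601125), which removes terminal galactose from glycolipids, was at 40.7, 36.7, 20.3 and 18.6 CPM. It was lower in both clones by a similar amount, at 0.524 and 0.480 of the WT mean. The log2 fold change of Gla was -0.99 (SE 0.17; adjusted p = 0.00719) and -0.54 under library totals, where it was the member that was still called lower. Boxes were thus printed above both for Gaa, which rose, and for Gla, which fell.

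Hexa, the alpha subunit of beta-hexosaminidase, had the widest clone difference of the set. It was at 57.6, 57.3, 48.3 and 183 CPM, with replicate 2 at 3.18 times the WT mean and 3.79 times replicate 1. The log2 fold change of Hexa was 1.01, but with an SE of 0.51 it did not pass the test (adjusted p = 0.156, and 0.0419 under library totals). Neu1, the lysosomal sialidase, was at 21.6, 22.7, 17.5 and 39.9 CPM, which is again below WT in replicate 1 and above it in replicate 2. Glb1 was at 83.3, 82.0, 51.8 and 75.5 CPM, under WT in both clones (log2 fold change -0.38, SE 0.21, adjusted p = 0.194). Gusb, beta-glucuronidase, was at 18.9, 18.6, 24.8 and 21.9 CPM. Man2b1, lysosomal alpha-mannosidase, was at 59.3, 66.3, 85.3 and 66.7 CPM. These 2 genes were higher in replicate 1 than in replicate 2, and their adjusted p-values were 0.202 and 0.277. Under library totals edgeR called both higher, with adjusted p-values of 0.0161 and 0.0213.

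In lipid handling, 2 of 3 genes rose and both did so in both clones. Of all tested genes 17.6% were called higher, and 38.3% had both Pim3-/- libraries above both WT libraries. Npc1, the membrane protein that exports cholesterol from the lysosome, was at 23.3, 22.7, 32.8 and 45.5 CPM (log2 fold change 0.77, SE 0.20, adjusted p = 0.0249). Psap (chr10:60277627-60302597), the precursor of the saposins that present sphingolipids to hydrolases, was at 163, 180, 275 and 383 CPM (log2 fold change 0.94, SE 0.22, adjusted p = 0.0161). For each of them replicate 2 was 1.39 times replicate 1. Npc2, the soluble partner that hands cholesterol to NPC1, was at 218, 208, 125 and 289 CPM, on either side of WT, with a log2 fold change of -0.05 (SE 0.35; adjusted p = 0.931). The count ratio of Npc2 to Npc1, which needs no scaling, was 9.37, 9.18, 3.81 and 6.34, lower in both Pim3-/- libraries than in WT.

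Of the 5 membrane proteins edgeR called 0, with 1 (Mcoln1) at an unadjusted p under 0.05. All 5 were higher in Pim3-/- replicate 2 than in replicate 1, and 4 lay on either side of WT by CPM. Of these 4, only Cd63 and Lamp2 did so under library totals. Lamp1 (chr8:13159161-13175338), with its 4 boxes, was at 663, 679, 512 and 944 CPM, with a log2 fold change of 0.12 (SE 0.29; adjusted p = 0.778). Lamp2, its paralog with a role in chaperone-mediated autophagy, was at 26.01, 27.96, 14.8 and 31.77 CPM. Cd63, a tetraspanin of late endosomes and exosomes, was at 180, 153, 60.0 and 196 CPM, a 3.26-fold difference between the clones. In Cd63 the loss in replicate 1, to 0.360 of the WT mean, exceeded the gain in replicate 2, to 1.17. Scarb2, the receptor that carries beta-glucocerebrosidase to the lysosome, was at 53.9, 58.6, 42.6 and 74.7 CPM. Mcoln1 (chr8:3500457-3515232) was above WT in both clones, at 29.0, 31.3, 38.0 and 73.2 CPM. Its log2 fold change was 0.88 (SE 0.29) and its adjusted p of 0.0501 was just over the threshold. The Wald test of DESeq2 gave Mcoln1 an adjusted p of 0.0216, and library totals gave 0.00906 with edgeR.

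The V-ATPase has a membrane sector, V0, and a cytoplasmic sector, V1. Atp6v0a1, a V0 subunit of the proton path, was at 30.03, 31.58, 48.6 and 47.95 CPM and rose to a like level in both clones (log2 fold change 0.65, SE 0.16, adjusted p = 0.0191). Atp6v0d1, which links V0 to V1, was at 180, 182, 188 and 322 CPM (log2 fold change 0.49, SE 0.26, adjusted p = 0.174). On this scale its difference lay almost wholly in replicate 2. Under library totals the log2 fold change of Atp6v0d1 was 0.95, and edgeR called it higher (adjusted p = 0.0211). None of the 3 subunits of V1 passed the test, with 0 at an unadjusted p under 0.05 and 0 called by the Wald test of DESeq2. Atp6v1a, the catalytic subunit, was at 134, 161, 104 and 139 CPM. Atp6v1b2, the nucleotide-binding partner of the catalytic subunit, was at 305, 324, 251 and 333 CPM. Atp6v1h, a regulatory subunit, was at 93.0, 95.7, 74.4 and 84.5 CPM. Log2 fold changes of these V1 genes were between -0.28 and -0.11 with adjusted p-values from 0.270 to 0.701, and under library totals they were between 0.17 and 0.34. The count ratio of Atp6v0d1 to Atp6v1a was 1.34, 1.13, 1.81 and 2.33, higher in both Pim3-/- libraries.

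Both transcription factor genes fell and did so in both clones. Of all tested genes 16.2% were called lower, and 34.2% had both Pim3-/- libraries below both WT libraries. Tfeb (chr17:47737030-47792419) was at 53.8, 49.7, 31.2 and 39.3 CPM (log2 fold change -0.55, SE 0.18, adjusted p = 0.0476). Tfe3 (chrX:7762560-7775202) was at 64.0, 61.8, 41.2 and 43.1 CPM (log2 fold change -0.58, SE 0.16, adjusted p = 0.0267). Under library totals the log2 fold changes were -0.10 for Tfeb and -0.12 for Tfe3, with adjusted p-values of 0.686 and 0.575, so both calls depended on the scaling. The counts measure the mRNA and not the protein or its place in the cell. Mitf, another gene of the family, had 218, 255, 217 and 682 counts and followed the clone split, at 3.25-fold more CPM in replicate 2 than in replicate 1 (log2 fold change 0.61, SE 0.47, adjusted p = 0.340). Tfec, the remaining family gene, had 0, 0, 2 and 0 counts and was not tested.

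In autophagy 1 of 6 genes rose and 1 fell, where 17.6% and 16.2% of all tested genes did. Wipi1 (chr11:109573331-109611967), which binds phosphoinositides on forming autophagosomes, was at 12.0, 12.6, 31.1 and 25.8 CPM. It was over WT in both clones, at 2.52 and 2.09 times its mean, with a log2 fold change of 1.21 (SE 0.19; adjusted p = 0.00608). Map1lc3b (chr8:121590361-121598760), whose product LC3B is attached to autophagosome membranes, was at 228, 201, 123 and 139 CPM. Both Pim3-/- libraries were under WT, and the log2 fold change was -0.71 (SE 0.18; adjusted p = 0.0211). Under library totals the fold change of Map1lc3b was -0.26 and its adjusted p 0.276. Map1lc3a, a paralog with a related product, was at 33.2, 27.3, 43.7 and 24.8 CPM, with replicate 1 the highest library. The count ratio of Map1lc3a to Map1lc3b was 0.146, 0.136, 0.356 and 0.179, higher in both Pim3-/- libraries and most so in replicate 1.

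Sqstm1, the receptor p62 that brings ubiquitinated cargo to autophagosomes, was at 309, 298, 175 and 366 CPM. By CPM it lay on either side of WT, at 0.576 and 1.21 of the WT mean in the 2 clones, as did 5 of 7 proteases and 2 of 7 glycosidases. Under library totals Sqstm1 kept this order, while those glycosidases, Hexa and Neu1, did not. The count ratio of Sqstm1 to Map1lc3b was 1.36, 1.48, 1.42 and 2.64, so only replicate 2 stood apart from WT. Ulk1, the kinase that starts autophagy, was at 134, 143, 180 and 216 CPM, over WT in both clones (log2 fold change 0.51, SE 0.18, adjusted p = 0.0623, and 0.00658 under library totals). Gabarapl1, of the same protein family as LC3, was at 43.0, 43.9, 40.2 and 42.6 CPM, the steadiest of the autophagy genes (log2 fold change -0.07, SE 0.16, adjusted p = 0.754).

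Levels can be compared between genes only per length, here as CPM per kb of exon. The length was the union of the annotated exons of all transcripts of a gene, such as 6489 bases for Ctsl and 9552 for Lamp2. The transcript in use can be shorter, so the order of genes below depends on the annotation. In WT, Lamp1 had the highest level per length of the 35, at 251 ± 4.41 (SD, n = 2), followed by Ctsd at 152 ± 4.71, Atp6v0d1 at 101 ± 0.763 and Sqstm1 at 90.4 ± 2.29. Next came Psap at 62.6 ± 4.43, Atp6v1b2 at 59.3 ± 2.48 and Ctsz at 59.0 ± 3.29, which did not differ beyond their spread. The lowest was Ctsh at 0.255, with WT libraries that agreed closely, then Npc1 at 2.03 ± 0.0369, Wipi1 at 2.79 ± 0.0994 and Lamp2 at 2.83 ± 0.144. Wipi1 and Lamp2 again did not differ beyond their spread. In Pim3-/-, Lamp1 was at 272 ± 114, and the wide SD reflects the distance between the 2 clones. Exons of some members overlap those of other genes, and reads of the overlap may have been split or lost. For Ctsd, 34.4% of the exon length overlaps Gm49369 on the same strand. For Gabarapl1 28.3% and for Ctsl 26.8% of the exon length overlap a gene on the opposite strand.

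**Figure D4:**
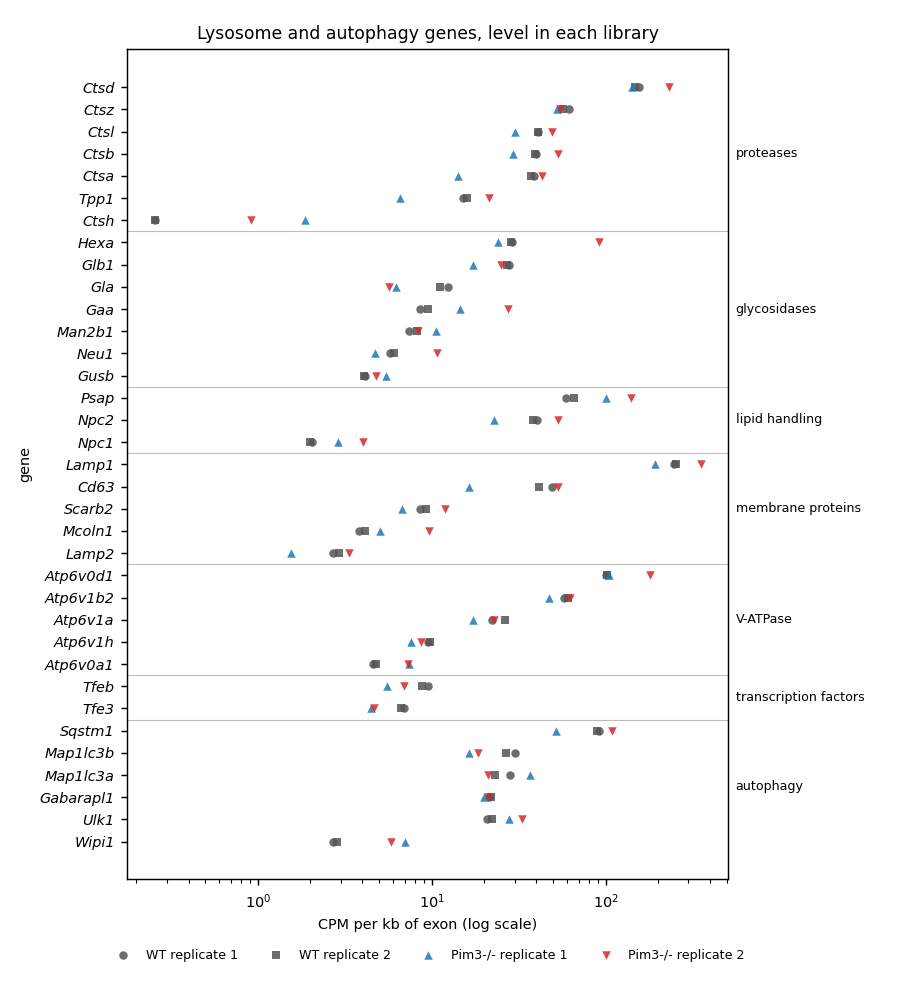
Level of each of the 35 genes in each of the 4 libraries, as CPM per kb of exon on a log axis, ordered within each role by WT level. The grey WT points nearly coincide for most genes, Lamp1 is the highest in WT at 251, and Ctsh is the lowest at 0.255.

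Leaving out a clone changed which members were called, and spread was then taken from the WT pair alone, with the lone Pim3-/- library assumed to vary like it. Without Pim3-/- replicate 1, 17 members were called higher (28.3% of all tested genes) and 4 lower (27.5%). Without Pim3-/- replicate 2, 10 were called higher (25.5%) and 17 lower (25.3%). Scarb2, Tpp1, Lamp1, Npc2 and Ctsb were called higher in the first case and lower in the second. Ctsh, Gaa, Npc1, Psap, Atp6v0a1 and Wipi1 were called higher, and Gla, Tfe3, Tfeb and Map1lc3b lower, in both cases, and Ulk1 was also called higher in both.

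Members whose promoter holds CACGTG were compared with those whose promoter does not. Of the 10 with a box, 9 were higher in Pim3-/- replicate 2 than in replicate 1, with a median log2 ratio of replicate 1 over 2 of -0.74. Of the 19 without a box, 15 were, with a median of -0.33. Over all tested genes with a promoter, 48% of 1377 genes with CACGTG and 46.3% of 10665 without it were higher in replicate 2. For TCACGTGA the shares over all tested genes were 59.5% of 237 and 46.2% of 11805, whereas the members hardly differed, with 83.3% of 6 that hold it and 82.6% of 23 that do not. These are descriptions of 2 libraries. The median log2 fold change of Pim3-/- over WT was 0.04 for members with a box and -0.05 for those without.

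Further genes of these pathways, 234 in 7 lists that leave out the members, were read from the same fit. Of 222 tested, 37 (16.7%) were called higher and 30 (13.5%) lower, against 17.6% and 16.2% of all tested genes, and the median log2 fold change was 0.17 against 0.07. Under library totals 96 were called higher and 8 lower, and the 8 were Pip4p1, Atp6v0e, Bloc1s1, Lamtor3, Lamtor4, Lamtor5, Atg101 and Nprl2 (named after its value was seen), so the other falls given below did not hold under that scaling. In these lists 64.9% of genes were higher in Pim3-/- replicate 2 than in replicate 1, between the 80% of the members and the 47.1% of all tested genes. The share was 82.2% of 45 genes listed as lysosomal hydrolases and activators, 75% of 16 further V-ATPase subunits and 71.1% of 38 listed as lysosomal membrane proteins. The place in the cell of the listed proteins was not checked, and not each need be a protein of the lysosome. It was 65.5% of 29 genes of sorting and trafficking, 57.9% of 19 autophagy receptors, 57.5% of 40 genes of the autophagy machinery and 42.9% of 35 genes of nutrient sensing. These first 3 lists had the highest shares and nutrient sensing the lowest, and the shares were not compared by a test.

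**Figure D5:**
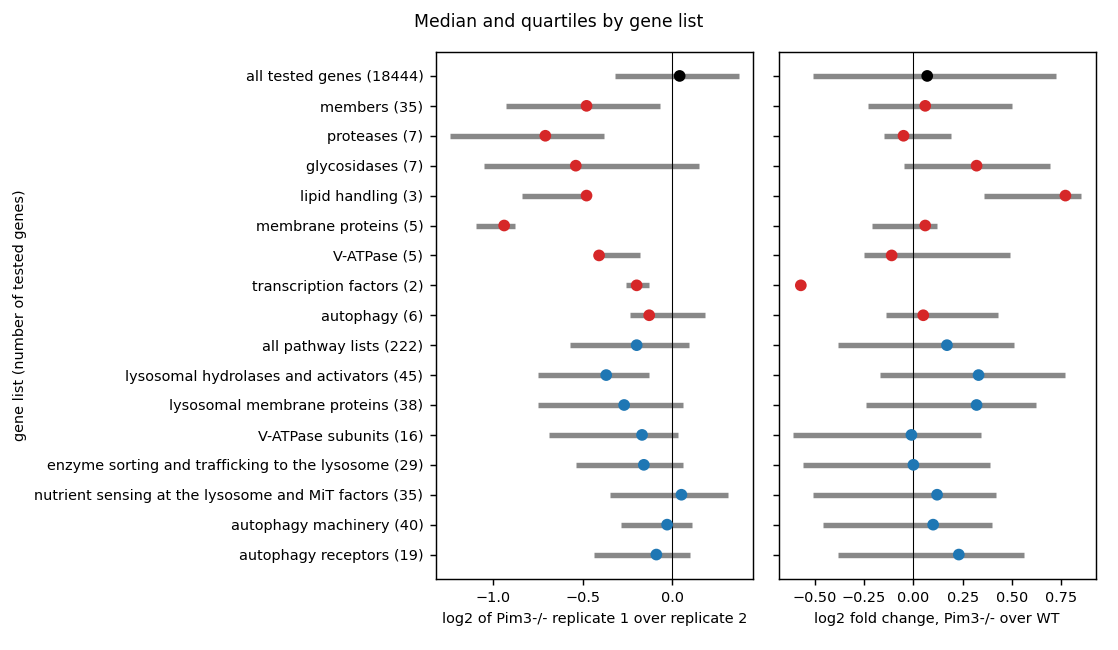
Median (points) and quartiles (bars) of the log2 ratio of Pim3-/- replicate 1 over replicate 2, left, and of the log2 fold change of Pim3-/- over WT, right, for all tested genes (black), the members and their roles (red) and the 7 further lists (blue). On the left the members lie at -0.48 and all tested genes at 0.04, and on the right they lie at 0.06 and 0.07.

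Of the further hydrolases 11 (24.4%) rose and 5 (11.1%) fell, where the shares of all tested genes were 17.6% and 16.2%, as for each list below. Acp5, tartrate-resistant acid phosphatase, had 82, 86, 954 and 1167 counts (log2 fold change 3.33, SE 0.22, adjusted p = 0.00122). Arsb, a sulfatase of dermatan sulfate, had 5, 4, 91 and 82 counts (3.90, SE 0.47, adjusted p = 0.00369), and Sgsh, a sulfatase of heparan sulfate, rose by 2.62 (SE 0.47) on the log2 scale. Both Pim3-/- libraries were far above WT for these genes. Smpdl3b fell by 1.09, Hyal2, a hyaluronidase, by 0.80, and Prcp, a carboxypeptidase, by 0.73. Of the genes listed as further membrane proteins 6 (15.8%) rose. Among them were Cln6 and Slc36a1, a transporter of amino acids, each by 1.36, and the cation channel Tpcn1 by 1.05. Pip4p1 was the 1 (2.63%) that fell, by 1.11. Of the further V-ATPase subunits 1 (6.25%) rose, Atp6v0a4 with a log2 fold change of 1.00, and 4 (25%) fell, among them Atp6v0e by 1.00, Atp6v1d by 0.92 and Atp6v1e1 by 0.74.

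In sorting and trafficking 4 genes (13.8%) rose and 6 (20.7%) fell. Igf2r, the receptor that carries mannose 6-phosphate enzymes to the lysosome, had 850, 1306, 2848 and 4485 counts (log2 fold change 1.46, SE 0.26, adjusted p = 0.00822). Vps39, of the HOPS tethering complex, had a log2 fold change of 0.81 and Arl8b, a GTPase of lysosome movement, one of 0.72. Bloc1s1 fell by 1.56, Vps29, of retromer, by 0.97 and Vps11, of HOPS, by 0.72. The counts of Bloc1s1 are uncertain, since 55.9% of its exon length overlaps Rdh5 on the same strand. In nutrient sensing 3 (8.57%) rose and 6 (17.1%) fell. Lamtor4, Lamtor5 and Lamtor3, subunits of the Ragulator complex that anchors mTORC1 on the lysosome, fell by 1.60, 1.05 and 1.01. Prkaa2, a catalytic subunit of AMPK, had a log2 fold change of 0.99, and Tsc1 and Flcn, regulators of mTORC1, had 0.77 and 0.74. Mtor itself was at 67.6, 73.2, 82.9 and 78.0 CPM (log2 fold change 0.19, adjusted p = 0.376), and Prkaa1, the other catalytic subunit of AMPK, was at 30.9, 32.9, 23.5 and 22.9 CPM (log2 fold change -0.46, adjusted p = 0.0652).

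In the autophagy machinery 9 genes (22.5%) rose and 5 (12.5%) fell. Ulk2, the paralog of Ulk1, had 23, 26, 170 and 213 counts (log2 fold change 2.63, SE 0.33, adjusted p = 0.00388). Stx17, a SNARE of autophagosome fusion, and Rubcn, an inhibitor of that step, had log2 fold changes of 1.54 and 1.15. Atg101, a subunit of the ULK complex, fell by 1.52, Vamp8, a SNARE, by 0.89 and Wdr45, a relative of Wipi1, by 0.84. Of the autophagy receptors 3 (15.8%) rose and 3 (15.8%) fell. Bnip3, a receptor of mitophagy, had 1950, 2145, 8645 and 10189 counts (log2 fold change 1.87, SE 0.19, adjusted p = 0.00304). For Ccpg1 42.9% of the exon length overlaps Gm44503 and for Wdr45 24.7% overlaps Gm45208, each on the same strand, and for Arsb 32.3% overlaps Gm26527 on the opposite strand, so these counts are uncertain too. Tollip and Ccpg1 had log2 fold changes of 0.69 and 0.63, and Fkbp8, Phb2 and Sec62 of -1.01, -0.66 and -0.51. Each of the genes named from the lists as rising or falling had an adjusted p under 0.05.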

How the data were processed

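RNA-seq libraries of 2 WT samples and 2 Pim3-/- clones of E14 ESCs, grouped by their titles, were analysed. The authors deposited raw counts per gene, which were used as deposited. The study's methods name Cutadapt, Hisat2, the mm10 genome and Ensembl genes, whereas the submitters' processing notes list Trim Galore, STAR, featureCounts and GRCm38. Settings for strand and multiply mapped reads are not given in the sources used here. Total RNA was treated with DNase and libraries were made with an mRNA-seq kit. The table of transposable elements was not used.

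Of 55418 genes, 31418 had at least 1 count and 18444 passed the low-count filter of edgeR 4.0.16 (filterByExpr, with a count of at least 10 and a total of at least 15). TMM factors were 0.828, 0.883, 1.168 and 1.172 in the order WT 1, WT 2, Pim3-/- 1 and Pim3-/- 2. Pim3-/- was compared with WT by the quasi-likelihood test of edgeR in R 4.3.3, and Benjamini-Hochberg adjustment covered every tested gene. Exon lengths and positions came from GENCODE vM21 (GRCm38), and promoters from RefSeq (GRCm38.p6). The last bases of 33 of 34 member promoters were found in a transcript of their gene, which shows their strand. Errors are standard errors of the fit or SDs of 2 libraries, and depth limits only genes of few counts (3 counts were 0.112 to 0.157 CPM).

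The members and the gene lists were chosen with earlier results of these data known. All members are named. From each list the up to 3 genes with the largest and the up to 3 with the smallest log2 fold change are named, among those with an adjusted p under 0.05 and at least 50 counts in each library of the higher group, and Mitf, Tfec, Pim3, Prkaa1, Prkaa2 and Mtor are named whatever their values. Alternatives were the size factors of DESeq2 1.42.0, library totals, no filter, a minimum of 10 counts in each library, the Wald test of DESeq2, a replicate block and the omission of each library. The counts of members by clone under other scalings were added after seeing the data.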

Additional observations from a re-analysis of the deposited data

How the results depend on the processing

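With TMM factors, 6 members were called higher and 4 lower. These counts, with the shares of all tested genes, were 6 and 4 (16.2% and 17.3%) with the size factors of DESeq2, 7 and 3 (9.1% and 9.47%) with no filter, 8 and 3 (16.9% and 15.7%) with at least 10 counts in every library, and 7 and 4 (13.9% and 17.3%) with the Wald test. Under library totals (35.8% and 5.92%) 13 members and 96 genes of the further lists were called higher and 1 and 8 lower, the members' median was 0.51, and 8 members in place of 14 had replicate 1 below and replicate 2 above WT, a count added after seeing the data. Log2 fold changes reversed there to 0.05 (Ctsa), 0.41 (Ctsl), 0.32 (Ctsz), 0.30 (Tpp1), 0.08 (Glb1), 0.41 (Npc2), 0.07 (Cd63), 0.24 (Lamp2), 0.17 (Atp6v1a), 0.34 (Atp6v1b2), 0.20 (Atp6v1h), 0.38 (Gabarapl1), 0.29 (Sqstm1) and 0.19 (Pim3). At least 10 counts in every library reversed Ctsl to 0.03, Npc2 to 0.04 and Gabarapl1 to 0.01. The cause was not tested. With each library left out in turn, 0 to 17 members were called higher and 0 to 17 lower, 6 to 91 genes of the lists higher and 3 to 71 lower, and the median was between -0.35 and 0.25. Members that reversed then ranged from -1.45 to 0.17 (Ctsa), -0.43 to 0.42 (Ctsb), -0.12 to 0.59 (Ctsd), -0.46 to 0.24 (Ctsl), -1.25 to 0.44 (Tpp1), -0.27 to 1.65 (Hexa), -0.35 to 0.83 (Neu1), -0.79 to 0.42 (Npc2), -1.49 to 0.21 (Cd63), -0.41 to 0.47 (Lamp1), -0.88 to 0.22 (Lamp2), -0.42 to 0.39 (Scarb2), -0.34 to 0.06 (Atp6v1b2), -0.30 to 0.51 (Map1lc3a) and -0.81 to 0.25 (Sqstm1), and Mitf from -0.49 to 1.21. Over all tested genes 3246 were called higher and 2987 lower, against 6606 and 1092 under library totals, 402 and 373 without WT replicate 1, 585 and 1061 without WT replicate 2, 5393 and 5255 without Pim3-/- replicate 1, and 4883 and 4846 without Pim3-/- replicate 2. The deviations of same-numbered libraries had a correlation of 0.02 over 18444 genes. With 1 difference per group, this value cannot show whether the libraries were paired. With a replicate block 7 members were called higher and 4 lower (18.5% and 17.7% of all tested genes).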

Other observations

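Genes outside the set were also higher in Pim3-/- replicate 2 than in replicate 1, and 5.67% of all tested genes were so by at least 2-fold. Gpnmb, a glycoprotein of lysosomes and melanosomes, was looked up after the pattern of the members was seen. It was at 2.87, 2.83, 0.862 and 21.5 CPM in WT replicates 1 and 2 and Pim3-/- replicates 1 and 2, which is 25-fold higher in Pim3-/- replicate 2 than in replicate 1. Cd68, a lysosomal glycoprotein and macrophage marker, was at 55.7, 50.7, 16.8 and 48.8 CPM, or 2.91-fold higher in replicate 2 than in replicate 1. For Cd68 both Pim3-/- libraries lay below both WT libraries, so its clones did not lie on either side of WT.

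The roles took the following shares of the set. Of the summed CPM per kb of the 35 genes, proteases took 27.8%, 27.0%, 26.1% and 25.9% in the 4 libraries. Lipid-handling genes took 8.03%, 8.44%, 11.9% and 11.2%, a larger share in both Pim3-/- libraries. The transcription factors Tfeb and Tfe3 took 1.30%, 1.23%, 0.938% and 0.659%, a smaller share in both. These shares need no scaling between libraries, but each depends on the level of the other members. Tfe3 was at 41.2 and 43.1 CPM in Pim3-/- replicates 1 and 2, while its share was 0.419% and 0.265%. Under library totals the log2 fold changes of Tfeb and Tfe3 were -0.10 and -0.12, so the smaller share does not show that their own level fell.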
